A study of Danio rerio with 13 samples.

Results

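The comparison described here sets the RNA crosslinked to hnRNP A1 in zebrafish embryos at the 32-cell stage, before zygotic genome activation (preZGA), beside the RNA recovered with a control IgG from embryos of the same stage. Its members are the 6 samples that carry the preZGA label, out of 13 in the series: 3 pulled down with mouse anti-hnRNP A1 antibody and 3 with an anti-IgG antibody as the negative control (called IgG here). All embryos were of the wild-type AB strain, were irradiated at 254 nm and received no other treatment. The deposited tables sum the 3 replicates of a group, and a group is therefore a single set of counts. The variation among replicates is unknown, and differences are described without any test. The 7 samples of the later stage (1000 cells, ZGA) serve below only as a second readout of the same regions. Markers of the embryo were not checked, since the tables carry positions and no gene names.

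hnRNP A1 is an abundant RNA-binding protein with a pair of RNA recognition motifs and a glycine-rich tail. It moves between nucleus and cytoplasm and is known, mainly from mammalian cells, for its part in the choice of splice sites and in later steps of the life of an mRNA. Before its own genome is switched on, the embryo lives on RNA laid down in the egg by the mother, and the nuclei make little RNA. In iCLIP, ultraviolet light joins a protein to the RNA it touches, the protein is pulled down, and the cDNA made from the attached fragment stops next to the crosslinked nucleotide, here called a site. The control antibody is not directed at hnRNP A1, and its cDNAs give the background of the procedure.

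The hnRNP A1 table listed 287588 sites with 583691 uniquely mapped cDNAs, while that of IgG listed 1508 sites with 9606 cDNAs. The fold of hnRNP A1 over IgG was therefore 60.8 by cDNAs (59.6 to 62.0; here and below the exact 95% interval of the counts, which covers counting error only) and 191 by sites. A small part of the genome set the first value. The 3 windows of 10 kb with the most IgG held 7701 of the 9606 IgG cDNAs. Without them, a setting added after seeing the data, 493134 hnRNP A1 cDNAs stood against 1905 of IgG, a fold of 259 (247 to 271). A nucleotide entered a table only if it was significant there by the submitters' criterion. A region without an entry is therefore described as having no site listed, its true count is unknown, and no fold is given for it.

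Almost all strongly bound windows either had no IgG site listed or lay well above IgG. Windows of 10 kb on 1 strand were compared where both tables together held at least 100 cDNAs, which 1219 of 13791 windows did. The hnRNP A1 table alone lifted 1212 of them over that limit, so the choice itself favours high folds. Folds are unscaled for depth, which is unknown, and the ratio of all listed cDNAs is itself 60.8. A window was called well above IgG where no IgG site was listed or where the whole interval of its fold lay at 10 or higher. This held for 1194 windows, 97.9% of those compared, with 68.5% of all hnRNP A1 cDNAs. In 1073 of them no IgG site was listed; over all compared windows an IgG site was listed in 146, or 12%. At the 259-fold ratio of the genome without the 3 leading windows, 100 hnRNP A1 cDNAs would go with 0.386 IgG cDNAs, so an empty IgG entry is the usual case for a window of that size and does not give its fold. At the limit of 10-fold they would go with 10 IgG cDNAs, but IgG cDNAs that failed the submitters' criterion would not be listed. The 1073 windows are thus counted as well above by definition, and their true folds are unknown.

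**Figure D1:**
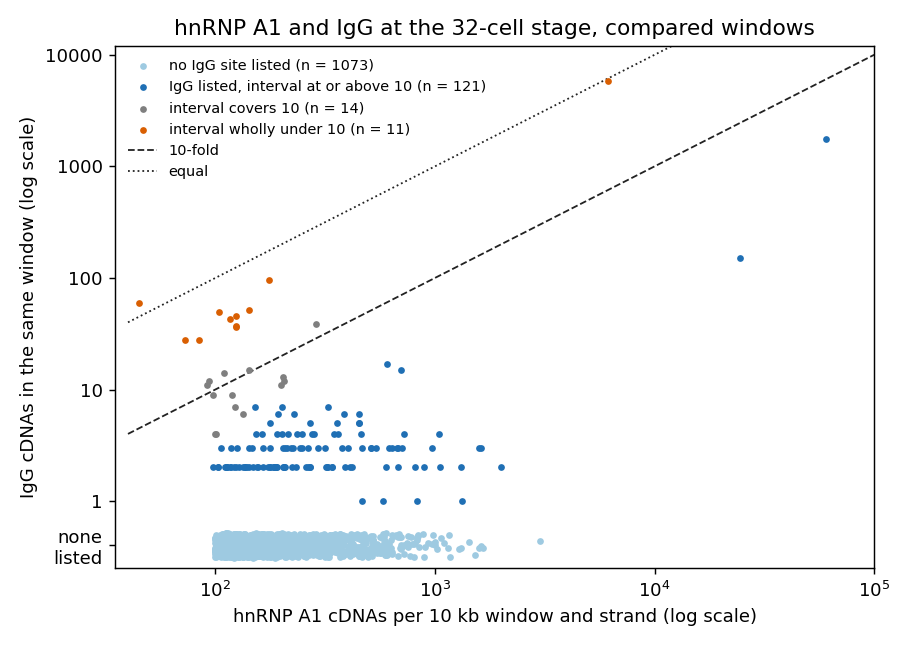
Each point is 1 of the 1219 compared windows, with its hnRNP A1 cDNAs on the x axis and its IgG cDNAs on the y axis, both on log scales; windows with no IgG site listed are spread in a band at the bottom to keep them visible. The dashed line marks 10-fold and the dotted line equal counts. The 11 orange windows lie above the dashed line, and the orange point far to the right of the others is the chromosome 1 window with 6117 hnRNP A1 and 5785 IgG cDNAs.

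The strongest window without an IgG site was on the plus strand of chromosome 8 at 24580001 to 24590000 (assembly Zv9, as for all positions here). It held 3002 hnRNP A1 cDNAs over 230 sites, which all lay within 642 nt. A single cluster from 24583701 to 24583866 carried 2165 of them, or 72.1%, over 146 neighbouring sites, and its strongest nucleotide, 24583776, held 93. Further clusters at 24583949 to 24583983 and 24584091 to 24584114 held 419 and 355 cDNAs. That nucleotide made up 3.10% of the window, close to the median of 3.60% over all windows without an IgG site. ZGA embryos gave 1815 hnRNP A1 cDNAs in it, again with no listed IgG site.

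The next windows without IgG differed in how binding was spread. Chromosome 9 plus at 21810001 held 1653 cDNAs over 549 sites, chromosome 12 minus at 34840001 held 1627 over 367 sites, and chromosome 22 minus at 38060001 held 1515 over 371 sites. Chromosome 3 minus at 59290001 reached 1590 cDNAs with 1085 sites, so that the average site there had 1.47 cDNAs and the strongest only 10. Chromosome 23 minus at 32590001 (1435 cDNAs over 873 sites) and chromosome 17 plus at 12900001 (1307 over 865) were of the same broad kind, with sites spread over 7915 and 4137 nt. The windows on chromosome 2 minus at 59480001, chromosome 20 minus at 30050001 and chromosome 21 minus at 31520001 held 1285, 1176 and 1163 cDNAs over 473, 330 and 367 sites. By number of sites the list was completed by chromosome 12 plus at 35970001 (604 sites with 1103 cDNAs) and chromosome 14 minus at 48570001 (593 sites with 905).

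Most well-bound windows carried many weak sites rather than a few strong ones. Among the 1073 windows with no IgG site, the median was 103 sites, 1.71 cDNAs per site and a span of 1600 nt between the first and the last site. The strongest nucleotide held a median of 3.60% of the window (quartiles 2.44 and 4.99%). The mean was under 1.5 cDNAs per site in 367 of these windows, or 34.2%, and under 2 in a further 340. At the other end, 13 windows had a mean of at least 10 cDNAs per site. The most focal was chromosome 15 plus at 43630001, where 164 cDNAs lay on 3 adjacent nucleotides and 142 on 1 of them, position 43632580. Chromosome 16 minus at 47800001 followed with 281 cDNAs over 10 adjacent nucleotides, and chromosome 6 minus at 55290001 with 278 over 13 nucleotides within 15 nt.

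The strand opposite a compared window seldom held an hnRNP A1 site. How often any window of the genome lacks such a site was not counted, so this does not show a preference for 1 strand. Of the 1219 compared windows, 1128 had no hnRNP A1 site at all on the opposite strand of the same 10 kb, and 8 lay opposite another compared window. Most runs of bound windows were a single window long. How many runs the same number of scattered windows would form was not computed, so the counts do not show whether bound windows avoid or adjoin each other. With at least 20 cDNAs per window, the 3899 windows formed 3464 uninterrupted runs along a strand, of which 3069 were a single window, 364 a pair and 31 longer. The longest run covered 60 kb of chromosome 25 minus, 36160001 to 36220000, with 1021 hnRNP A1 cDNAs over 363 sites and no IgG site listed. Its 6 windows held from 29 to 357 cDNAs. The run of 5 windows on chromosome 12 minus from 18630001 held 261 cDNAs beside 4 of IgG.

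In the other 121 well-above windows an IgG site was listed, usually a faint one. The limit itself favours faint ones: chromosome 25 minus at 34740001, with 100 hnRNP A1 and 4 IgG cDNAs, did not pass it. The median was 3 IgG cDNAs, and 91 of the 121 held 3 or fewer. Examples are chromosome 5 plus at 36190001, with 1995 hnRNP A1 and 2 IgG cDNAs (fold 998, 276 to 8242), chromosome 15 minus at 5790001, with 1615 and 3 (538, 184 to 2613), and chromosome 10 plus at 33030001, with 1591 and 3 (530, 181 to 2574). The intervals are wide because the IgG counts are small. The 121 windows were somewhat larger than those without IgG. Their medians were 244 hnRNP A1 cDNAs, 133 sites and 1.92 cDNAs per site, against 180, 103 and 1.71.

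A pair of windows combined very strong hnRNP A1 signal with a clear IgG signal and still passed the limit. Chromosome 4 minus at 61290001 to 61300000 held 60053 hnRNP A1 cDNAs over 1421 sites and 1766 IgG cDNAs over 371 sites, a fold of 34.0 (32.4 to 35.7). All 371 IgG nucleotides there were hnRNP A1 sites, and those sites carried 49.7% of the hnRNP A1 cDNAs of the window. Yet the fold was uneven along it. Over the cluster from 61299041 to 61299109 it was 13.4 (8052 against 602 cDNAs), from 61299564 to 61299868 it was 26.8 (11326 against 422), and from 61297955 to 61298142 it was 76.0 (6691 against 88). A cluster of 1528 hnRNP A1 cDNAs at 61295502 to 61295540 had no IgG site at all.

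The mitochondrial plus strand from 1 to 10000 held 24387 hnRNP A1 cDNAs over 838 sites and 150 IgG cDNAs over 37 sites, a fold of 163 (138 to 192). IgG again met only parts of the bound stretches. The strongest hnRNP A1 nucleotide, 2300, had 2086 cDNAs beside 26 of IgG, and its cluster from 2262 to 2363 held 4920 beside 39, or 126-fold. The cluster from 2836 to 2921 held 4269 beside 78, or 54.7-fold, and that from 1276 to 1317 held 1554 beside 31, or 50.1-fold. No IgG site was listed in clusters of 2297 cDNAs at 1882 to 1950, of 1791 at 1711 to 1865, of 1520 at 3649 to 3703 and of 1295 at 3221 to 3261. The minus strand, with 404 hnRNP A1 cDNAs, had no listed IgG site.

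A short list of regions was not well above IgG. The whole interval of the fold lay under 10 in 11 windows, 0.902% of those compared, with folds from 0.763 to 3.44. They held 1.24% of the hnRNP A1 cDNAs and 65.2% of the IgG cDNAs, and 1 window on chromosome 1 held 6117 of these 7230 hnRNP A1 and 5785 of these 6259 IgG cDNAs. The other 10 held from 45 to 176 hnRNP A1 cDNAs each. Chromosome 4 held 7 of the 11, against 31 of the 1219 compared windows (2.54%).

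The chromosome 4 windows were few and small beside the chromosome's main locus. The lowest fold of all was on the minus strand at 49790001, with 45 hnRNP A1 and 59 IgG cDNAs (0.763, 0.506 to 1.14). At 52370001 minus there were 176 and 96 (1.83, 1.42 to 2.38), and 72 of the 176 lay on 1 nucleotide, which was also the strongest IgG nucleotide. At 40090001 plus there were 104 and 49 (2.12), all hnRNP A1 sites lying within 33 nt. The neighbouring windows at 45580001 and 45590001 on the minus strand held 73 and 124 hnRNP A1 beside 28 and 46 IgG cDNAs, folds of 2.61 and 2.70. The last ones, at 32650001 plus and 44610001 minus, held 116 beside 43 (2.70) and 124 beside 37 (3.35).

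Outside chromosome 4 the windows not well above IgG were chromosome 8 plus at 40540001, with 143 hnRNP A1 and 52 IgG cDNAs (2.75, 1.99 to 3.85), chromosome 22 plus at 28860001, with 84 and 28 (3.00, 1.94 to 4.78), chromosome 3 minus at 1650001, with 124 and 36 (3.44, 2.36 to 5.14), and the chromosome 1 window. In 6 of the 11 the strongest hnRNP A1 and the strongest IgG nucleotide were the same. That was also so in some, but not most, of the windows whose interval covered 10, such as chromosome 7 minus at 62480001. Its share over all compared windows with an IgG site was not counted, so it is not shown to be particular to the 11. The strongest nucleotide held a median of 24.5% of the hnRNP A1 cDNAs of the 11 windows, against 3.57% in those well above IgG and 26.2% in 14 windows whose interval covered 10. The median number of sites was 34, against 104.5 and 37.5. The sites were not closer together: their median span was 2149 nt, against 1626.5 and 275 nt.

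Both kinds of region were found on chromosome 4, in different places. Up to 30 Mb, 16 windows were compared. No IgG site was listed in 15 of them, and the other was well above IgG with 2 IgG cDNAs. Beyond 30 Mb, on the long arm, which is known to be rich in repeats, 15 windows were compared, each with an IgG site. There 7 were not well above IgG, 4 had an interval covering 10 and 4 were well above. The cut at 30 Mb was chosen with these data known. The median was 5.95 cDNAs per site beyond 30 Mb and 1.91 before it.

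The window on chromosome 1, plus strand, 2600001 to 2610000, held 6117 hnRNP A1 cDNAs over 35 sites and 5785 IgG cDNAs over 32 sites, all hnRNP A1 sites lying within 55 nt. Read by nucleotide it consisted of 2 parts with different folds, a split made after seeing the values. Within 20 nt of the strongest hnRNP A1 nucleotide, 2600143, there were 4613 hnRNP A1 and 5674 IgG cDNAs, a fold of 0.813 (0.782 to 0.845). Beyond it, from 2600174 to 2600184, there were 1504 hnRNP A1 cDNAs against 111 of IgG in the same outer part, a fold of 13.5 (11.2 to 16.6). Most of the latter sat on 2600181, with 1189 against 89, and 2600184 had 103 hnRNP A1 cDNAs and no listed IgG site.

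The fold also differed along the first part. At 2600143 hnRNP A1 gave 1324 and IgG 744 cDNAs, at 2600144 they gave 1265 and 1031, and from there the order turned: 475 and 618 at 2600145, 215 and 372 at 2600147, 185 and 665 at 2600152. Both had a further high point at 2600152, where hnRNP A1 was at 0.278 of the IgG level. From 2600150 to 2600152 hnRNP A1 went from 79 to 185 cDNAs and IgG from 232 to 665. The profile by nucleotide shows both parts. The order did not turn in the same way at ZGA. There hnRNP A1 was ahead at 2600145 with 1515 against 1210 cDNAs, at 2600147 with 400 against 334 and at 2600152 with 796 against 674. IgG was ahead at 2600150 and 2600151, and also at 2600153 with 107 against 64 and at 2600154 with 118 against 99. Summed at ZGA, the fold was 1.36 (1.32 to 1.4) in the first part, with 10131 and 7458 cDNAs, and 35.7 (17.1 to 89.7) in the outer part, with 250 and 7.

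**Figure D2:**
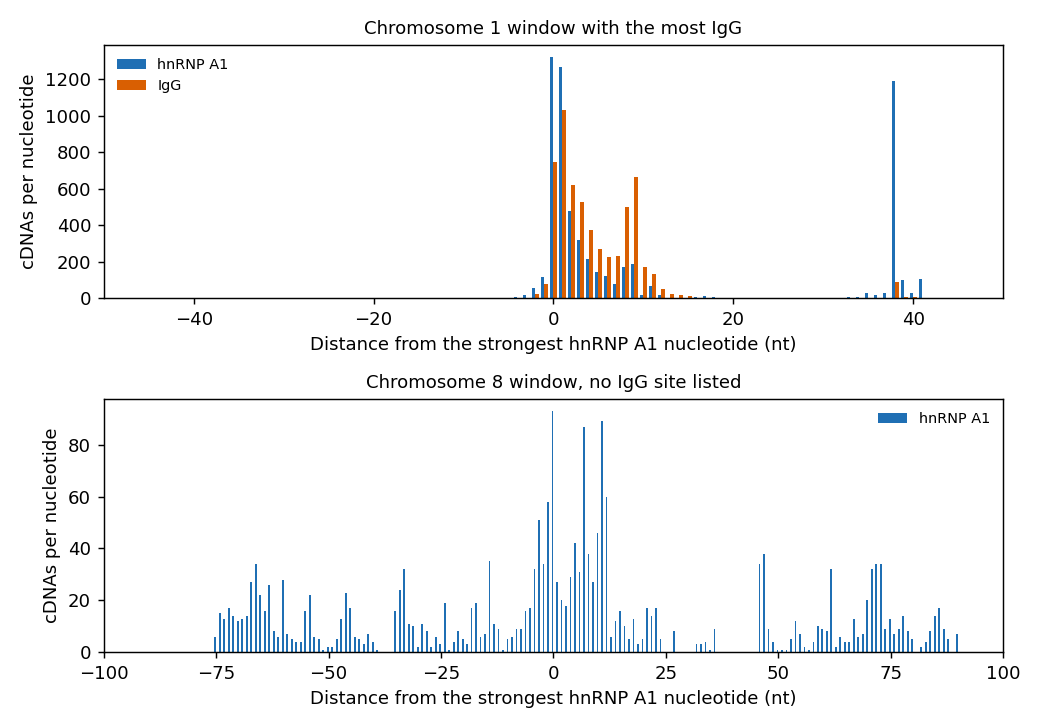
Bars give the cDNAs per nucleotide of hnRNP A1 (blue) and IgG (orange) against the distance in nt from the strongest hnRNP A1 nucleotide of 2 windows, with linear axes that differ in range between the panels. In the chromosome 1 window IgG follows hnRNP A1 near distance 0 and exceeds it a few nucleotides on, while the far peak of 1189 hnRNP A1 cDNAs has 89 of IgG; in the chromosome 8 window no IgG bar is present.

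Between the classes lay 14 windows whose interval covered 10. Closest to the limit from below was chromosome 3 minus at 1650001, whose interval ended at 5.14, and from above chromosome 7 minus at 67320001, with 152 hnRNP A1 and 7 IgG cDNAs and an interval starting at 10.3. The largest of the 14 was chromosome 14 minus at 51040001, with 286 and 39 cDNAs (7.33, 5.24 to 10.5). Most of both lay on 1 nucleotide, 51047074, with 180 and 33. Chromosome 6 plus at 2540001 held 98 and 9 on a stretch of 7 nt, and chromosome 16 minus at 49340001 held 94 and 12 within 9 nt.

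Seen from the IgG side, the order was different. Of the 33 windows with at least 10 IgG cDNAs, which held 88.5% of the IgG table, 20 were not well above IgG, 9 were undecided and 4 were well above. The 20 include 3 windows where no hnRNP A1 site was listed, and 10 of the 33 held fewer than 100 cDNAs in both tables together. These 33 windows were picked for high IgG, which lowers their folds by choice.

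By chromosome, the fold exceeded the genome-wide 60.8 on 24 of 26, the mitochondrial genome included, and the interval lay wholly above it on all of these. It was below on chromosome 1, at 3.83 (3.72 to 3.94), and on chromosome 4, at 29.9 (28.7 to 31.1). The chromosome 1 value came from the 55 nt described above. The plus strand had a fold of 2.30 and the minus strand 595, and without the 3 windows with the most IgG chromosome 1 stood at 475. Chromosome 4 did not change in this way. Without its strongest window it held 11516 hnRNP A1 and 629 IgG cDNAs, a fold of 18.3 (16.9 to 19.9), with 22.0 on the plus and 16.5 on the minus strand. The genome-wide 60.8 was itself lowered by the chromosome 1 window, which held 5785 of the 9606 IgG cDNAs. That most chromosomes exceeded 60.8 therefore says little about them. Against the fold of 259 without the 3 windows, 2 chromosomes lay wholly below: chromosome 4 and chromosome 22, the latter at 136 (112 to 167).

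The other 23 numbered chromosomes ran from 136 to 1166 with a median of 370. Chromosome 22 was lowest, at 136 (112 to 167), through its plus strand: 4492 hnRNP A1 against 90 IgG cDNAs gave 49.9 there, and 9242 against 11 gave 840 on the minus strand. Of these 90 IgG cDNAs, 28 lay in the window at 28860001 that was not well above IgG. Chromosome 8 followed with 248 (201 to 311), again lower on the plus strand, at 167 against 748. There the window at 40540001 alone held 52 of the 74 IgG cDNAs of the plus strand, so the lower value is mostly that of 1 window. Chromosome 23 was highest, with 20993 hnRNP A1 and 18 IgG cDNAs (1166, 738 to 1968). Chromosomes 20 and 10 came next at 704 and 688. Their intervals overlap with that of chromosome 23, as do those of chromosomes 24, 18, 9 and 25. The order among these chromosomes is therefore not settled by the counts. IgG numbers of 18 to 101 cDNAs per chromosome limit the precision.

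**Figure D3:**
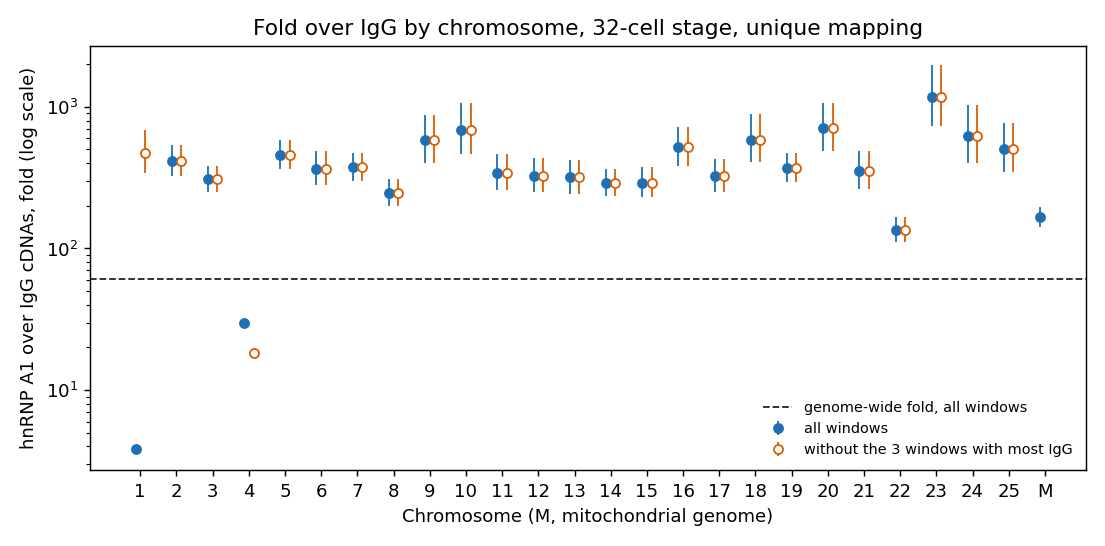
The ratio of hnRNP A1 to IgG cDNAs (log scale) is given for each chromosome with its 95% counting interval, for all windows (filled) and without the 3 windows with the most IgG (open); the dashed line is the genome-wide fold of 60.8. Chromosome 1 moves from 3.83 to 475, chromosome 4 stays below the line, and no open point is drawn for the mitochondrial genome, which has no listed IgG site outside the window left out.

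With all windows counted, the excess over IgG was smaller among strong sites. By number of sites, the fold was 191 for all sites, 91.5 (78.1 to 108) for sites of at least 5 cDNAs, 54.4 (42.8 to 70.2) for at least 10 and 15.5 (8.66 to 30.5) for at least 100, with 186 hnRNP A1 and 12 IgG sites in the last class. All 12 IgG sites of at least 100 cDNAs lay in the chromosome 1 window, so the last value rests on it. Without that window 173 hnRNP A1 sites and no IgG site reached 100 cDNAs. At 50 cDNAs there were then 515 against 6 sites, or 85.8-fold (39.2 to 235). Without the chromosome 1 window the fold at 10 cDNAs was 75 (56.6 to 102), and without all 3 leading windows it was 153 (91.2 to 281), with 2146 against 14 sites. In that remainder the fold did not drop steadily: it was 267 for all sites, 372 (309 to 452) for sites of at least 3 cDNAs and 96.3 (37.3 to 355) for at least 20, where only 4 IgG sites remained. At least 50 cDNAs were reached there by 45 hnRNP A1 sites and no IgG site.

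**Figure D4:**
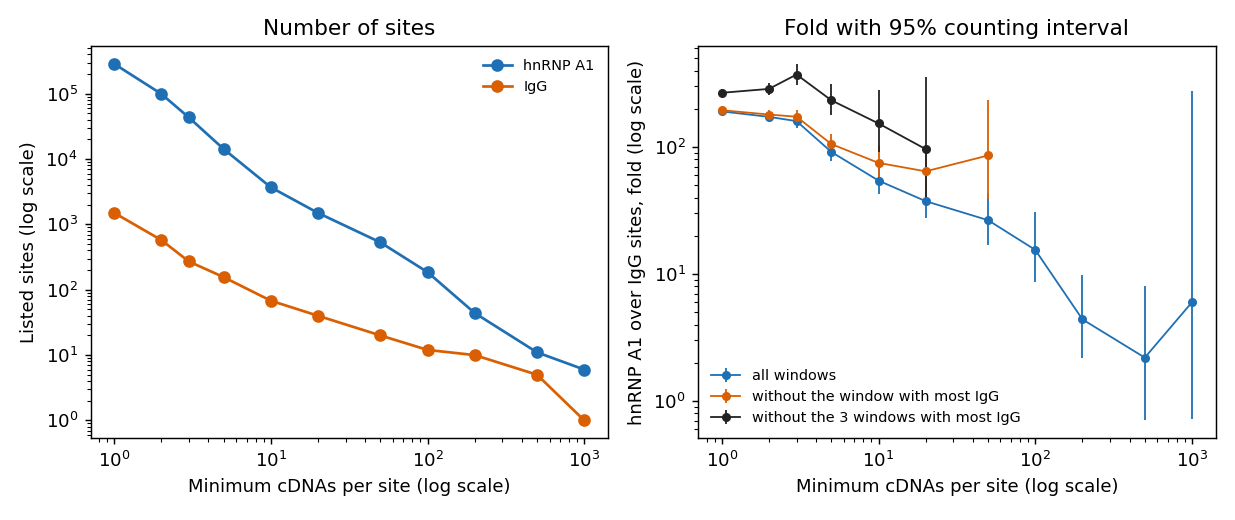
The left panel gives the number of listed sites with at least the cDNAs on the x axis, for hnRNP A1 and IgG; the right panel gives their ratio with the 95% counting interval, with all windows, without the window with the most IgG and without the 3 with the most (all axes are log scales). The ratio over all windows goes from 191 at 1 cDNA to 15.5 at 100, while without the 3 windows it is 153 at 10 cDNAs.

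Strong hnRNP A1 sites coincided with IgG sites far more often than weak ones. An IgG site on the same nucleotide and strand was listed for 906 of 287588 hnRNP A1 sites, or 0.315%. The share was 0.0580% (0.0476 to 0.0700) among sites of 1 cDNA, 0.918% (0.745 to 1.12) among those of 5 to 9, 18.7% (16.3 to 21.3) among those of 20 to 49 and 59.1% (51.7 to 66.3) among the 186 of at least 100. Outside the 3 leading windows the same order held, from 0.0575% at 1 cDNA to 12.6% (9.31 to 16.7) at 20 to 49 and 45.9% (29.5 to 63.1) at 50 to 99, the last over 37 sites.

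Coincidence did not mean equal counts. Over the 371 shared nucleotides of the chromosome 4 window at 61290001 the median ratio of hnRNP A1 to IgG was 21.0 (quartiles 12.1 and 38.3), with hnRNP A1 the higher at each of them. Over the 37 shared mitochondrial nucleotides it was 28.0, again higher at each. Over the 25 of the chromosome 1 window it was 1.23, with IgG equal or higher at 12. Over the 473 shared nucleotides elsewhere it was 2 (quartiles 1 and 5), with a median of 3 hnRNP A1 cDNAs and 1 of IgG, and IgG was equal or higher at 141.

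**Figure D5:**
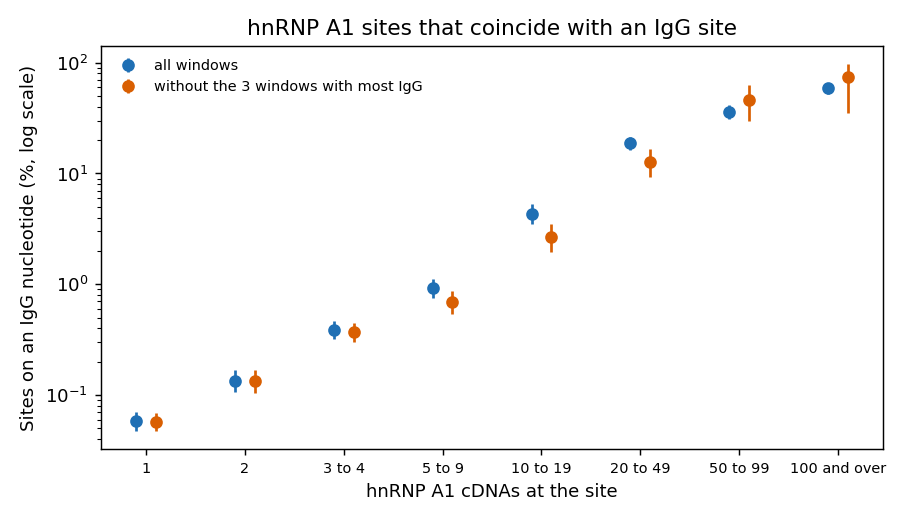
Points give the percentage of hnRNP A1 sites that lie on a listed IgG nucleotide of the same strand (log scale) by the cDNAs of the hnRNP A1 site, with exact 95% intervals, for all windows and without the 3 with the most IgG. Both series go from under 0.1% at 1 cDNA to over 10% at 20 to 49 cDNAs.

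Only 8 hnRNP A1 sites of at least 100 cDNAs lay outside the 3 leading windows, and 6 of them coincided with an IgG site. The strongest, on chromosome 3 plus at 60265099, had 389 hnRNP A1 and 12 IgG cDNAs, or 32.4-fold. Position 51047074 on chromosome 14 minus had 180 and 33, or 5.45-fold, the lowest of the 6. Chromosome 15 minus at 37943479 had 142 and 3, chromosome 4 minus at 40468563 had 125 and 2, chromosome 3 minus at 39041421 had 117 and 1, and chromosome 5 plus at 59888083 had 108 and 5. The remaining ones, on chromosome 15 plus at 43632580 and chromosome 16 minus at 47803664, had 142 and 121 hnRNP A1 cDNAs and no listed IgG site. All 8 nucleotides were hnRNP A1 sites at ZGA too, with 95 to 513 cDNAs. The share of all hnRNP A1 sites that were listed again at ZGA was not counted.

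hnRNP A1 sites were joined where neighbours lay within 15 nt, and 2 or more joined sites made a cluster. The 30620 clusters held 99% of the cDNAs. The median cluster was 16 nt wide with 5 sites and 7 cDNAs. An IgG site lay inside 238 clusters, or 0.777% (0.682 to 0.882). These 238 were larger, at a median of 30 nt and 44 cDNAs, and carried 15.3% of the hnRNP A1 cDNAs. The share with an IgG site went from 0.178% (0.123 to 0.249) of clusters under 10 cDNAs to 2.36% (1.84 to 2.97) at 30 to 99 and 29.5% (21.2 to 38.8) of the 112 clusters of at least 300. So 79 of these 112 strongest clusters had no listed IgG site.

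RNA from repeated sequence, mapped to several places, stood less far above IgG. Each cDNA in these tables is shared out among the places it maps to. The same cDNAs can therefore count in several windows, and the windows are not independent. The counts are mostly fractional, so the intervals of multi-mapping folds are approximate and not exact. hnRNP A1 held 39530 cDNAs and IgG 1775, a fold of 22.3 (21.2 to 23.4). Of 40 windows with at least 100 such cDNAs, 38 were well above IgG, 9 of them with no IgG site listed. The strongest was chromosome 20 plus at 55780001, with 2671 hnRNP A1 and 15 IgG cDNAs (178-fold, 108 to 317). By unique mapping it had no hnRNP A1 site listed and 3 IgG cDNAs. Next was chromosome 4 minus at 61290001, with 1128 and 63.3 (17.8-fold). Chromosome 4 plus at 43980001 and minus at 43920001 held 1125 and 1113 beside 18.9 and 18.2 (59.5-fold and 61.3-fold). The top site of each held 44.9 cDNAs of hnRNP A1 and 4.86 of IgG. Whether these windows share the same cDNAs was not tested. Chromosome 1 plus at 3370001 held 1107 and 60.7 (18.2-fold). With no IgG site, chromosome 2 minus at 44440001 led with 382 cDNAs over 549 sites.

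A single multi-mapping window was not well above IgG, and it alone held 38.3% of the IgG multi-mapping cDNAs. Chromosome 9 plus at 4230001 to 4240000 had 279 hnRNP A1 and 679 IgG cDNAs, a fold of 0.411 (0.357 to 0.474). All of it lay within 20 nt. hnRNP A1 was the higher at 4239828 and 4239829, at the latter with 51.6 against 40.5 cDNAs. IgG was the higher at each position from 4239830 to 4239839, with 158 against 41.0 at 4239838. Without this window the multi-mapping fold was 35.8 (33.7 to 38.1). A window of 25.1 hnRNP A1 and 26.9 IgG cDNAs on chromosome 14 plus at 52120001 was too small for the comparison. Uniquely and multi-mapped counts did not always go together: chromosome 4 minus at 49790001, the lowest window with unique mapping, had 986 hnRNP A1 and 17.2 IgG multi-mapping cDNAs.

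The ZGA libraries, which took no part in the classes above, gave a second reading of the same windows. Of the 1219 windows, 1217 had an hnRNP A1 site at ZGA and 723 held at least 100 cDNAs there in both tables together. The windows under that limit were not compared at ZGA. With 480927 hnRNP A1 and 20262 IgG cDNAs listed at ZGA, this choice too favours high folds. Of these 723, 704 were well above IgG at ZGA (97.4%). Among the 604 of these with no IgG site at preZGA, 600 were well above IgG at ZGA and 4 were not. Of the 96 that were well above IgG at preZGA with an IgG site, 95 were so at ZGA, so both shares lie near that of all 723. Of the 12 undecided windows 8 were well above at ZGA, 2 were not and 2 were undecided again. All 11 windows not well above IgG at preZGA could be compared, and 10 were again not well above it, with a higher fold in each of the 11. The exception was chromosome 4 minus at 49790001, with 386 hnRNP A1 and 17 IgG cDNAs at ZGA (22.7, 14 to 39.4). The 11 were picked for low folds at preZGA, which by itself favours a higher fold at a second reading. How many of all compared windows had a higher fold at ZGA was not counted.

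An IgG site at ZGA was listed in each of the 11 windows not well above IgG at preZGA, in 10 of the 14 undecided ones, in 23 of the 121 well above with IgG and in 58 of the 1073 without IgG, or 5.41% (4.13 to 6.93). Over all 1219 windows it was 8.37%. Windows with more IgG at the first stage thus more often had an IgG site at the second. The 2 stages share no library, but both IgG groups were made with the same kind of antibody and protocol, and the numbers of listed IgG cDNAs differ, at 9606 and 20262. Folds at the 2 stages are given side by side and their differences were not tested.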

How the data were processed

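iCLIP was done on wild-type AB zebrafish embryos irradiated at 254 nm. Lysates were treated with RNase I and RNA was taken from membrane above the size of hnRNP A1, per the labels' protocols. The authors deposited signed values per nucleotide, a unit classed as other: unique-mapping tables hold whole cDNA counts and multi-mapping tables hold fractional ones. Per the file headers the replicates of a group were summed, and sites passed a false discovery rate of 0.01 with 100 permutations and a neighbourhood of 15 nt (Zv9, Ensembl release 72). The submitters' processing notes name CASAVA 1.4. For the aligner and the handling of PCR duplicates nothing is given in the sources used here.

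The 26 files held 8 distinct tables, and copies were counted once. The sign was read as the strand and the absolute value as the count. Folds are ratios of listed cDNAs, unscaled for depth, which is unknown. Intervals are exact (Clopper-Pearson) at 95%, except with multi mapping, where fractional counts make them approximate. Named windows were the 10 with the most hnRNP A1, the 10 with the most IgG, the 10 lowest folds, the 10 with the most hnRNP A1 and the 5 with the most sites among those without IgG, and 5 each with multi mapping; other named sites and clusters were chosen after their values were seen. Windows, limits and lists were chosen with earlier results of these data known. Window code was tested on simulated counts. Because no Zv9 sequence or annotation was used here, no gene, motif or sequence is given. Intervals came from scipy 1.17.1, tables from pandas 2.3.3 and numpy 2.4.6, and plots from matplotlib 3.10.9, under Python 3.11.15.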

Additional observations from a re-analysis of the deposited data

How the results depend on the processing

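No paired analysis was possible because the replicates were summed in the deposited tables, and for the same reason no replicate was left out. Listed totals are not library depth, and signal that failed the submitters' filter is not counted. Of 53 alternatives, 19 stayed within the interval of the reported value, or within 1.5 times for a count, and 34 did not. The 11 alternative folds ran from 17.2 to 259. Counts of windows also changed with the number of windows compared.

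The total fold of 60.8 was 45.6 and 24.3 with sites of at least 2 and 5 cDNAs, 151 without the leading IgG window, 259 without the 3 leading ones (a setting chosen after seeing the data), 59.1 on nuclear chromosomes, 22.3 with multi mapping and 191 by number of sites. The fold at sites of at least 10 cDNAs, 54.4, was 75 and 153 without 1 and 3 leading windows, 41.3 with multi mapping and 17.2 by cDNAs.

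The 1194 windows well above IgG became 702 of 715 and 214 of 224 with sites of at least 2 and 5 cDNAs, 38 of 40 with multi mapping, 3785 of 3913 and 127 of 128 with minimums of 20 and 500 cDNAs, and 763 of 825 when chosen by ZGA counts. The 11 not well above became 6 with sites of at least 5 cDNAs, 1 with multi mapping, 21 and 1 with minimums of 20 and 500 cDNAs, 17 by number of sites and 24 when chosen by ZGA counts, so their number depends on how windows are picked. With fold limits of 5 and 20 there were 10 and 16.

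The share of hnRNP A1 sites at an IgG site, 0.315%, was 0.388% and 0.974% with sites of at least 2 and 5 cDNAs, 2.61% with multi mapping, 0.550% within 1 nt, 1.29% within 15 nt and 0.166% without the 3 leading windows. The share of clusters, 0.777%, was 1.82% with sites of at least 5 cDNAs, 0.465% at a merge distance of 3 nt and 11.1% with multi mapping. The 2 chromosomes below the genome-wide fold became 1 with sites of at least 5 cDNAs and 1 without the leading IgG window. Without the 3 leading windows the number was again 2, but these were chromosomes 4 and 22 in place of 1 and 4. It was also 2 with multi mapping and by number of sites, again with other members. With multi mapping, chromosomes 9 (1.78, 1.62 to 1.95) and 14 (11.2, 8.25 to 15.5) lay below 22.3. Chromosome 4 then lay above it, at 32.3 (28.8 to 36.4). By number of sites the lowest folds were those of chromosome 4, at 11.9, and the mitochondrial genome, at 28.2, against 191 for all sites. The causes of these shifts were not tested beyond what each setting leaves out.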

Other observations

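Weakly bound windows seldom carried an IgG site. Over all 13791 windows an IgG site was listed in 408, of which 93 had no hnRNP A1 site. Of the 7932 windows with 1 to 9 hnRNP A1 cDNAs, 38 had an IgG site, or 0.479% (0.339 to 0.657), against 4.46% (3.57 to 5.51) of those with 30 to 99 and 13.9% (10.1 to 18.5) of those with at least 300 and under 1000. Summed over windows, IgG came to 0.401% of the hnRNP A1 cDNAs in the first class, 0.441% in the second and 0.107% in the third. The 21 windows of at least 1000 and under 2000 cDNAs held 28026 hnRNP A1 and 17 IgG cDNAs.

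In 93 windows an IgG site was listed and no hnRNP A1 site. They held 265 IgG cDNAs in all, a median of 2 each, and 49 of them rested on a single site. The leading one was chromosome 13 minus at 46920001, with 17 cDNAs on 1 nucleotide, followed by chromosome 19 plus at 2130001 with 15 and chromosome 10 plus at 1150001 with 10. At ZGA these 3 windows held 22, 28 and 4 IgG cDNAs, beside 2 and 48 hnRNP A1 cDNAs in the first and second and none listed in the third. An hnRNP A1 site was listed at ZGA in 20 of the 93 and an IgG site in 12.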
